A study of Mus musculus with 10 samples.

Results

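The 10 genes described here are core components and direct outputs of the circadian clock: Arntl and Npas2, Per1, Per2 and Per3, Cry1 and Cry2, Nr1d1, Dbp and Ciart. They were taken by symbol from a table of 57010 gene rows, and all 10 were among the 15539 genes abundant enough to be tested. RNA was measured in whole retinas of 10 mice aged 6 to 8 weeks at injection, collected 14 days after vector had been injected into the vitreous. One group of 5 mice received AAV2-GFP, the AAV2 capsid carrying green fluorescent protein, and the other group of 5 received AAV206-GFP, the same reporter in the capsid under study, which the series title presents as directed at the retinal pigment epithelium. All 10 mice were injected and uninjected retinas were not analysed here, so every value is one vector set against the other. Strain, sex, lighting schedule and the hour at which each retina was collected are not given in the sources used here, and a part of collection hour in the differences below was not tested.

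The circadian clock is a feedback loop of transcription. ARNTL (also called BMAL1) pairs with CLOCK or NPAS2, binds E-box sequences and switches on the Per and Cry genes, whose proteins return to block that pair. A second loop runs through NR1D1 (REV-ERB alpha), which represses Arntl through ROR elements, so that Arntl and Nr1d1 RNA peak at opposite times of day. DBP acts through D-box sequences, where NFIL3 opposes it. The retina holds its own clock, which runs in photoreceptors and inner retinal neurons and adjusts light sensitivity over the day, partly through dopamine.

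Short stretches of promoter are shown for Cry1, Cry2, Per3, Ciart, Arntl and Nfil3. Each holds a match to an element through which the loops are described as acting. A gene shown is not always a gene that changed: Arntl and Ciart did not pass the test described below. The stretches come from RefSeq windows of build GRCm38.p6, each with 250 bases before the annotated start and 50 after it. Windows were found for 9 of the 10 genes, and none was found for Per2. Searched on both strands were the E-box CACGTG, the E-box variant CACGTT, the ROR element core TAGGTCA and the D-box TTANNTAA. Capitals mark matches, a match on the opposite strand reads as its reverse complement, and no 2 of these motifs overlapped in the stretches printed. Cry1 (chr10:85185069-85185173, minus strand) holds an E-box variant and an E-box, Cry2 (chr2:92434190-92434275, minus strand) an E-box variant, Per3 (chr4:151044776-151044910, minus strand) a pair of D-boxes, and Ciart (chr3:95882229-95882384, minus strand) 3 E-boxes. For Arntl only the site is shown (chr7:113207531-113207557, plus strand), with its ROR core 30 bases after the later of its annotated starts. The Arntl window from the earlier start held no match. Nfil3 (chr13:52981040-52981091, minus strand), which is not among the 10 genes, carries the same core 12 bases before its start.
Cry1: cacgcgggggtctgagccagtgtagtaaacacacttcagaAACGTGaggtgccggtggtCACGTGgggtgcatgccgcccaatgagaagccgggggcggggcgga
Cry2: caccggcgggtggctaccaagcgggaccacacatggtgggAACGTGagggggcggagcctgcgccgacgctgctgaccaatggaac
Per3: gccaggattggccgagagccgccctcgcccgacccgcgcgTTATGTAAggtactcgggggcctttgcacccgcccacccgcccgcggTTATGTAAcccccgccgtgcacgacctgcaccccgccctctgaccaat
Ciart: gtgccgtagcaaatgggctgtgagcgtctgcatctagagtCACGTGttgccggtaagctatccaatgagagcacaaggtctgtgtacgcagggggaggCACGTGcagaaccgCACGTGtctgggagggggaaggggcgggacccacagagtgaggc
Arntl: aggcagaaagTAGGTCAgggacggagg
Nfil3: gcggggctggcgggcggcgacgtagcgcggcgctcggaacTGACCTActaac

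These matches describe letters and not occupied sites. Among all 32851 windows of this length, an E-box was found in 7.15%, 3 or more E-boxes in 0.0883%, the E-box variant in 4.68%, the ROR core in 2.61%, and a D-box in 6% with 2 or more in 0.487%. The 9 clock genes with a window had 11 windows in all. Of these genes, 3 held an E-box in at least 1 window (Ciart, Cry1 and Per1) and 3 the variant (Cry1, Cry2 and Nr1d1). The ROR core was held by 1 (Arntl) and a D-box by 1 (Per3). No match was found in the windows of Npas2 and Dbp.

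**Figure D1:**
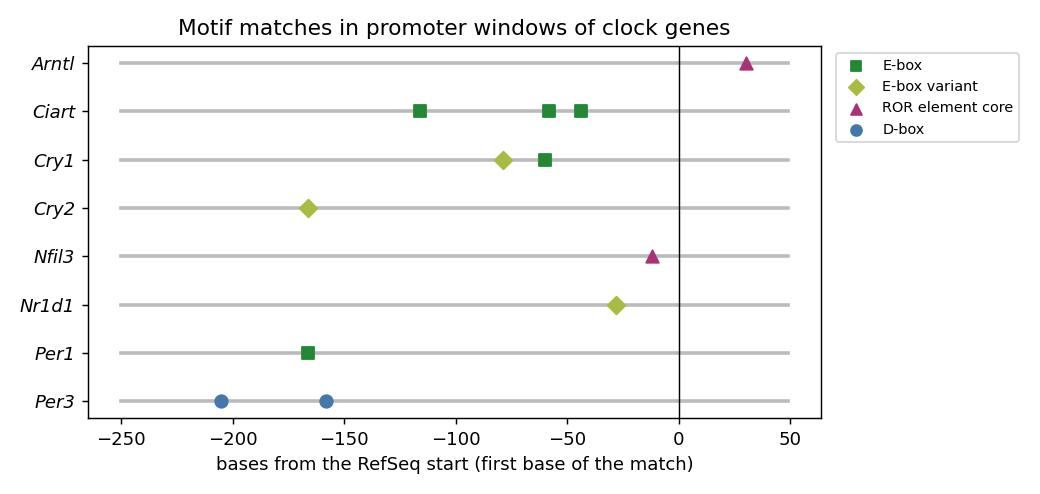
Positions of motif matches in RefSeq promoter windows, for clock genes with at least 1 match and for Nfil3. The x axis is the distance in bases of the first base of a match from the annotated start (vertical line), grey lines span the window, and symbols give the motif. Ciart holds 3 E-boxes within 116 bases of its start and Per3 its D-boxes at 205 and 158 bases before its start. Arntl has its ROR core 30 bases after the later of its annotated starts.

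The libraries were of similar depth, between 10989843 and 12752604 estimated counts. Levels are given as CPM, counts scaled to a common library size after trimmed mean (TMM) correction for composition. At this depth 3 counts corresponded to 0.232 to 0.274 CPM, a limit covering counting error only. The tissue matched its label, with 5 rod markers summing to between 46490 and 55338 CPM. In bulk tissue fewer cells of a type and less RNA per cell cannot be told apart. Markers of other sources moved with the groups: all 4 erythrocyte genes tested were higher with AAV206-GFP (summed level 96.7 to 299.7 CPM against 64.1 to 78.7), and both lens crystallins tested were lower (4 listed, 0.182 to 10.3 CPM against 10.2 to 31.5). Of 5 microglia and macrophage genes 3 were tested and 1 passed, as lower (13.96 to 18.2 CPM against 16.7 to 132), with the highest sum in AAV2-GFP mouse 1. The 4 lymphocyte markers were too low to test (summed level 0.0848 to 0.949 CPM against 0.269 to 10.3), and all 4 were highest in AAV2-GFP mouse 1, at 2.17 CPM for Cd3e, 1.90 for Cd8a, 3.62 for Cd4 and 2.62 for Nkg7. Cd3e and Nkg7 were at 0 in 8 and 9 of the 10 libraries. Among markers of retinal cells, 2 of 5 rod and 2 of 5 cone genes passed as higher, where 5.95% of all tested genes did. Those passing as lower were 2 of 4 endothelial, 1 of 5 bipolar and 1 of 5 ganglion cell genes, where 5.3% of all tested genes did. None passed for amacrine, horizontal and Müller cells, astrocytes or the retinal pigment epithelium. Of the 5 pigment epithelium genes 4 were tested, and their levels were low (summed level 8.19 to 15.4 CPM against 5.30 to 21.1). These libraries therefore say little about that cell type. Estimates were below 0 for 3 of the 5 rod genes, for all 5 Müller cell genes and for 3 of the 4 pigment epithelium genes tested. The part of these cell sources in the clock gene results was not tested. AAV2-GFP mouse 1 was the lowest of its group for Per1, Cry1, Cry2, Nr1d1, Dbp and Ciart. The results below are given with all libraries, and those that change without 1 of them are named.

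With AAV206-GFP, 4 of the 10 clock genes passed the test (edgeR quasi-likelihood test, Benjamini-Hochberg adjusted p under 0.05 over all genes) and all 4 rose: Cry1, Cry2, Per3 and Npas2. None fell with edgeR, DESeq2 or limma-voom, and at an unadjusted p under 0.05 with edgeR 1 gene, Dbp, was lower. Over all tested genes 11.2% passed, 5.95% as higher and 5.3% as lower. The groups did not overlap at all for 3 of the 10 genes, each with AAV206-GFP above, against 9.78% of all tested genes, 5.41% with AAV206-GFP above and 4.36% below. The median log2 fold change of the 10 genes was 0.17, against -0.0095 over all tested genes, and 8 of the 10 estimates were positive. The 10 genes and the lists below were chosen with earlier results of these data known. Counts set beside these shares are therefore description and not a test. The calls were fragile apart from that of Cry1: in the 10 fits that left out 1 library, between 1 and 4 of the clock genes passed. Without AAV2-GFP mouse 1 only Cry1 and Per3 passed, and when AAV2-GFP mice 1 and 4 were both left out, the count with edgeR was 0, although 4 were higher at an unadjusted p under 0.05.

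Compared per kilobase of annotated exon, Nr1d1 was the most abundant of the 10 in the AAV2-GFP retinas, at 76.9 CPM per kb, followed by Dbp at 44.1. Cry2, Per1 and Cry1 lay between 19.8 and 23.3 CPM per kb, Per3 at 14.7, Arntl at 11.6, Per2 at 7.06 and Ciart at 4.11. Npas2 was the least abundant, at 0.467 CPM per kb. The place of Dbp and the order within the middle of this list depend on the exon lengths used and were not tested. In CPM without that scaling, Dbp at 132 was below Cry2 at 147 and Per3 at 141 in the AAV2-GFP retinas.

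**Figure D2:**
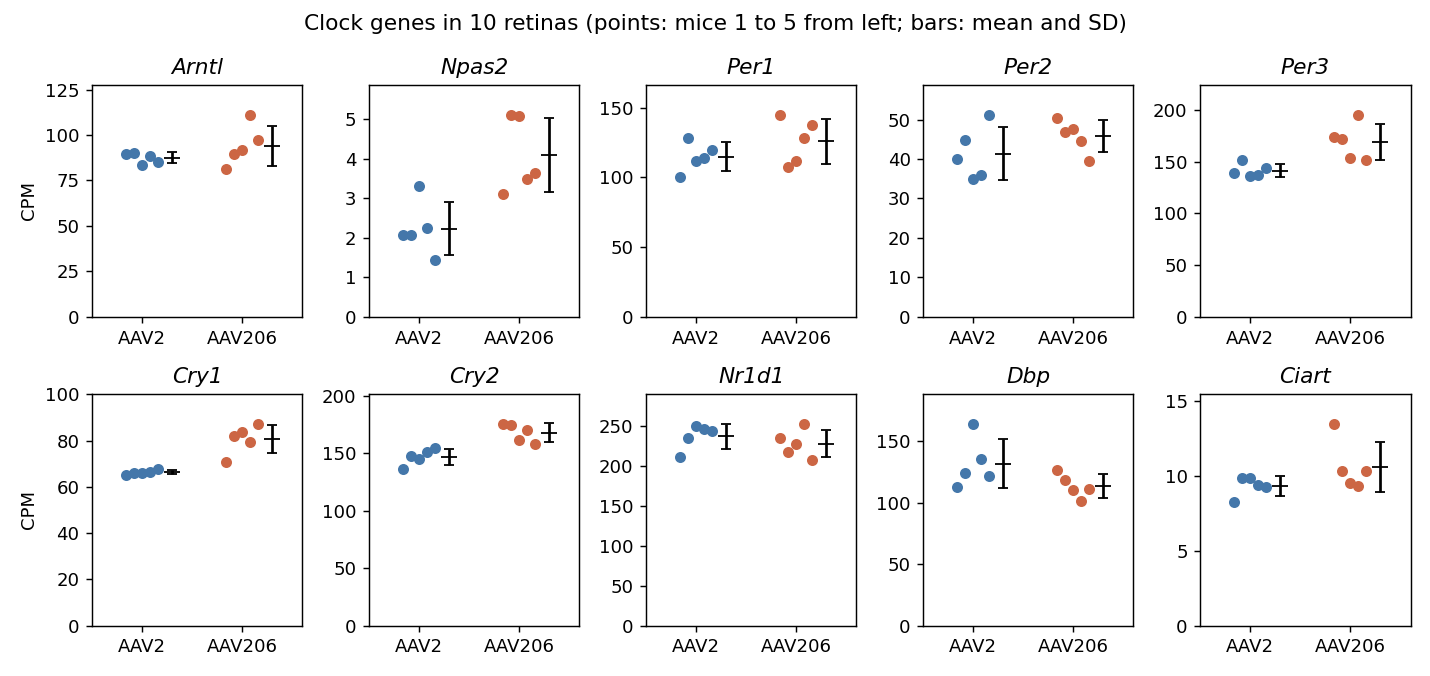
CPM of each clock gene in each retina, AAV2-GFP in blue and AAV206-GFP in orange, mice 1 to 5 from left to right, with the mean and SD (n = 5) beside the points. Each y axis starts at 0 and has its own scale. The groups separate without overlap for Per3, Cry1 and Cry2 and overlap for the other 7 genes.

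Cry1 and Cry2 encode the cryptochromes, the strongest repressors of the loop. Cry1 (ENSMUSG00000020038, chr10:85131700-85185064, minus strand, GRCm38) stood at 65.3, 66.1, 65.9, 66.5 and 67.6 CPM in AAV2-GFP mice 1 to 5 and at 70.8, 82.1, 83.6, 79.3 and 87.2 CPM in AAV206-GFP mice 1 to 5. Every AAV206-GFP retina lay above every AAV2-GFP retina, with AAV206-GFP mouse 1 the nearest to the other group. The means were 66.3 ± 0.853 and 80.6 ± 6.18 CPM (SD, n = 5), which is 0.28 ± 0.06 (SE) in log2 fold change at an adjusted p of 0.00937 with edgeR, or 1.22-fold. The AAV2-GFP retinas covered a narrow range beside the AAV206-GFP retinas, a difference in spread that was not tested. At 722 to 852 counts per AAV2-GFP library, their SD is smaller than counting error alone would give on average. Cry1 passed in each of the 10 fits without 1 library and in 10 of 11 other settings, the exception being the fit without AAV2-GFP mice 1 and 4 (log2 fold change 0.27, edgeR adjusted p = 0.0648).

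Cry2 (ENSMUSG00000068742, chr2:92403646-92434043, minus strand) had 136, 148, 145, 151 and 154 CPM with AAV2-GFP and 176, 175, 161, 171 and 158 CPM with AAV206-GFP. These groups did not overlap either, although AAV2-GFP mouse 5 and AAV206-GFP mouse 5 lay close together. From 147 ± 6.81 to 168 ± 8.17 CPM (SD, n = 5), the change in log2 units was 0.19 ± 0.06 (SE) at an adjusted p of 0.0431 with edgeR. The call was near the threshold, and of the 10 fits that left out 1 library it held only in that without AAV206-GFP mouse 5. It was also lost with scaling by library sizes only (adjusted p = 0.0525), without a filter on low counts (adjusted p = 0.0811) and with the replicate block (adjusted p = 0.107). Of its exon bases 4.67% are also annotated to the antisense transcript D930015M05Rik, whose reads cannot be told apart from those of Cry2 if counting ignored strand. Counts of Cry2 were whole numbers in all 10 libraries.

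The Per genes encode the partners of the cryptochromes in repression. Per1 is also induced directly by light and by glucocorticoids, Per2 by light, and Per3 is the least required for rhythm itself. Per3 (ENSMUSG00000028957, chr4:151003652-151044665, minus strand) stood at 139, 152, 136, 137 and 143 CPM with AAV2-GFP and at 174, 172, 153, 195 and 152 CPM with AAV206-GFP. The groups did not overlap, but AAV206-GFP mice 3 and 5 were close to AAV2-GFP mouse 2. The means were 141 ± 6.46 and 169 ± 17.6 CPM (SD, n = 5), which is 0.26 ± 0.07 (SE) in log2 fold change at an adjusted p of 0.0290 with edgeR. The call was lost when AAV2-GFP mouse 3, 4 or 5 or AAV206-GFP mouse 1, 2 or 4 was left out, with log2 fold changes that stayed between 0.20 and 0.30 in every setting.

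Per1 (ENSMUSG00000020893, chr11:69095217-69109960, plus strand) had 100.2, 128, 112, 114 and 120 CPM with AAV2-GFP and 145, 108, 112, 128 and 137 CPM with AAV206-GFP. Its groups overlapped over most of their range, and its log2 fold change of 0.13 did not pass (95% interval -0.05 to 0.32, edgeR adjusted p = 0.335). Per2 (ENSMUSG00000055866, chr1:91415982-91459324, minus strand) had 39.9, 44.7, 35.0, 36.1 and 51.1 CPM with AAV2-GFP and 50.4, 46.8, 47.5, 44.7 and 39.6 CPM with AAV206-GFP. It overlapped too, the highest of all 10 retinas being AAV2-GFP mouse 5. Its log2 fold change was 0.15 (95% interval -0.06 to 0.36, edgeR adjusted p = 0.349). The intervals of Per1 and Per2 include the estimate for Per3, and whether the 3 Per genes differed in their response was not tested.

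Arntl and Npas2 belong to the activating arm. Arntl (ENSMUSG00000055116, chr7:113207465-113314126, plus strand) stood at 89.8, 90.3, 83.5, 88.6 and 85.4 CPM with AAV2-GFP and at 81.4, 89.6, 91.8, 111 and 97.0 CPM with AAV206-GFP. The AAV206-GFP group held both the lowest and the highest retina of the study, mice 1 and 4. The means of 87.5 ± 2.94 and 94.1 ± 10.9 CPM (SD, n = 5) gave a log2 fold change of 0.11 that did not pass (95% interval -0.05 to 0.26, edgeR adjusted p = 0.370).

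Npas2 (ENSMUSG00000026077, chr1:39193731-39363236, plus strand), which can stand in for CLOCK as the partner of ARNTL, was the largest change and the least deeply counted, with 17 to 59 counts per library. Its levels were 2.08, 2.07, 3.33, 2.26 and 1.45 CPM with AAV2-GFP and 3.11, 5.11, 5.09, 3.50 and 3.65 CPM with AAV206-GFP. AAV2-GFP mouse 3 lay above AAV206-GFP mouse 1, and the other AAV206-GFP retinas were above all AAV2-GFP retinas. From 2.24 ± 0.681 to 4.09 ± 0.940 CPM (SD, n = 5) the change in log2 units was 0.86 ± 0.25 (SE) at an adjusted p of 0.0369 with edgeR, a 1.82-fold rise whose 95% interval on the log2 scale ran from 0.33 to 1.39. Npas2 was past the threshold in 3 of the 10 fits that left out 1 library, those without AAV2-GFP mouse 3, AAV206-GFP mouse 1 or AAV206-GFP mouse 5.

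Nr1d1, Dbp and Ciart are direct E-box targets that read out the activity of the ARNTL pair: Nr1d1 the repressor of Arntl, Dbp the D-box activator and Ciart a further repressor of ARNTL, also called CHRONO. Nr1d1 (ENSMUSG00000020889, chr11:98767932-98775333, minus strand) had 211, 235, 249, 246 and 243 CPM with AAV2-GFP and 235, 217, 227, 252 and 207 CPM with AAV206-GFP. The groups overlapped almost entirely. Its log2 fold change was -0.06 (95% interval -0.20 to 0.09, edgeR adjusted p = 0.618).

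Dbp (ENSMUSG00000059824, chr7:45705088-45710203, plus strand) stood at 113, 124, 164, 136 and 122 CPM with AAV2-GFP and at 126, 119, 110, 101.4 and 111 CPM with AAV206-GFP. AAV2-GFP mouse 3 was the highest retina and AAV206-GFP mouse 4 the lowest, with overlap between them. The means of 132 ± 19.9 and 114 ± 9.44 CPM (SD, n = 5) gave the most negative estimate among the 10 genes, a log2 fold change of -0.21 that did not pass (95% interval, not adjusted for the number of genes, -0.41 to -0.02, edgeR adjusted p = 0.139). In no setting did Dbp pass.

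Both genes share exon sequence with a neighbour on the opposite strand and carried fractional counts in all 10 libraries. Thra, the thyroid hormone receptor alpha gene, covers 8.55% of the exon bases of Nr1d1, and Sphk2, a sphingosine kinase gene, covers 18% of those of Dbp. The neighbours had log2 fold changes of the same sign, -0.06 for Thra (edgeR adjusted p = 0.617) and -0.28 for Sphk2 (edgeR adjusted p = 0.130). Levels of Nr1d1 and Dbp are therefore uncertain to the extent that reads were divided between the pairs.

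Ciart (ENSMUSG00000038550, chr3:95878503-95882251, minus strand), whose promoter stretch holds the 3 E-boxes shown above, had 8.23, 9.88, 9.82, 9.36 and 9.23 CPM with AAV2-GFP and 13.5, 10.3, 9.49, 9.33 and 10.3 CPM with AAV206-GFP. AAV206-GFP mouse 1 stood apart, mice 2 and 5 lay just above the AAV2-GFP range and mice 3 and 4 inside it. Its log2 fold change was 0.19 (95% interval -0.09 to 0.46, edgeR adjusted p = 0.372).

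**Figure D3:**
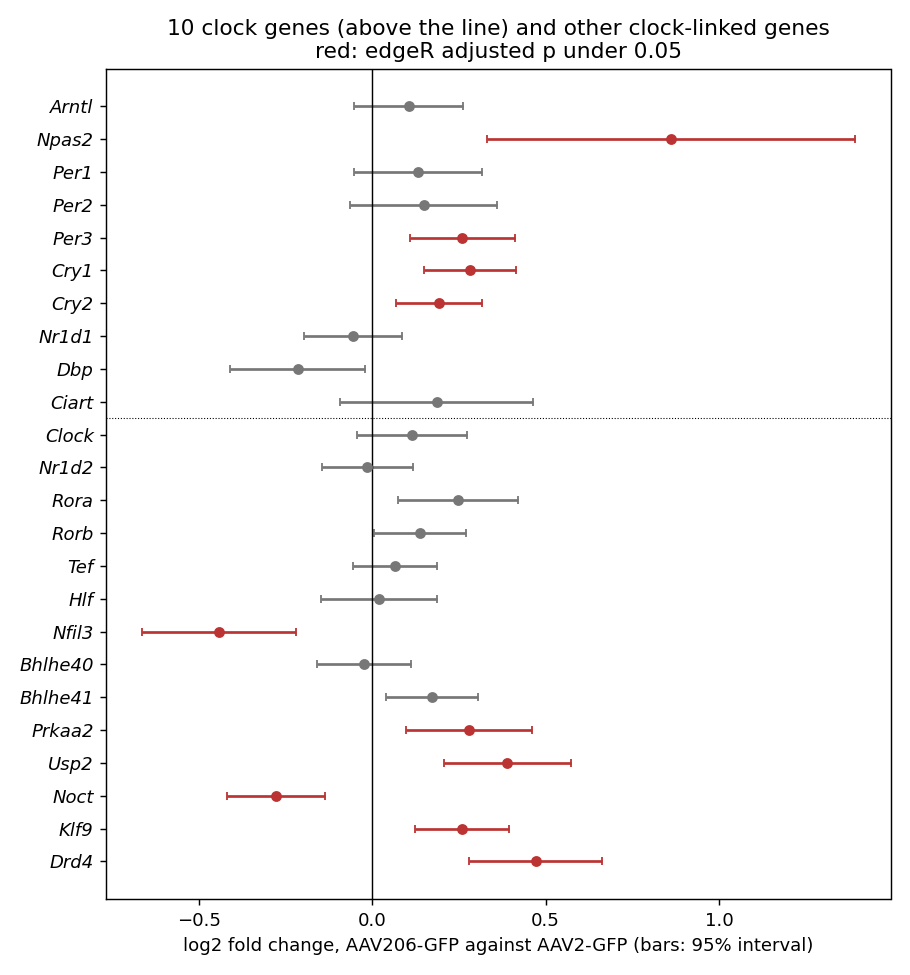
Log2 fold change of AAV206-GFP against AAV2-GFP with its 95% interval from the edgeR fit, not adjusted for the number of genes, for the 10 clock genes above the dotted line and for other clock-linked genes below it. Red marks an adjusted p under 0.05. Below the line, the loop transcription factors named in the text are shown whether or not they passed. From the lists of genes acting on clock proteins, clock outputs and retinal light and rhythm, only genes that passed are shown. The share of red points below the line therefore does not describe those lists. Npas2 has the largest estimate at 0.86 and the widest interval, and Nfil3 the lowest at -0.44.

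Genes of opposite phase were then compared. Arntl and Npas2 are known to peak at times of day opposite to Nr1d1, Dbp and the Per genes. Between the groups, Npas2 rose, with an estimate of 0.86, Arntl had an estimate of 0.11 and Per1, Per2, Per3 and Ciart estimates of 0.13 to 0.26, all on the same side of 0, whereas Nr1d1 and Dbp were on the other side at -0.06 and -0.21. Of these 8 genes Npas2 and Per3 passed, both as higher. The difference of log2 CPM between Arntl and Dbp within each retina, from which the scaling between libraries cancels, was -0.33, -0.46, -0.98, -0.62 and -0.52 in AAV2-GFP mice 1 to 5 and -0.64, -0.41, -0.27, 0.13 and -0.20 in AAV206-GFP mice 1 to 5. It was higher on average with AAV206-GFP by 0.30, but the groups overlapped, with AAV206-GFP mice 1 and 2 inside the range of the AAV2-GFP retinas. Between Arntl and Nr1d1 the mean of this difference was higher by 0.16 with AAV206-GFP. Against Per1, Per2, Per3 and Ciart it was lower, by between 0.03 and 0.16, and for all 6 genes compared with Arntl the groups overlapped.

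In some mice of each group, less Arntl went with more Dbp. In the AAV2-GFP group the retina with the least Arntl, mouse 3 at 83.5 CPM, had the most Dbp and the most Nr1d1, at 164 and 249 CPM. Among AAV206-GFP retinas mouse 1 had the least Arntl, at 81.4 CPM, together with the highest Dbp, Per1, Per2, Cry2 and Ciart of its group. AAV206-GFP mouse 4 had the most Arntl, at 111 CPM, and the least Dbp and Ciart of its group, at 101.4 and 9.33 CPM. The order was not kept throughout: mouse 4 also had the highest Nr1d1 and Per3 of its group, at 252 and 195 CPM, and in the AAV2-GFP group mouse 2 had the most Arntl together with the most Per1, Per3 and Ciart. Other genes also set AAV2-GFP mice 1 and 3 apart. The Müller cell markers Rlbp1 and Glul were highest in mouse 3, at 314 and 2152 CPM. Both were lowest in mouse 1, at 197 and 1419 CPM, whereas Apoe, of the same list, was highest in mouse 1. These relations within groups, and the part of cell content in them, were not tested.

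**Figure D4:**
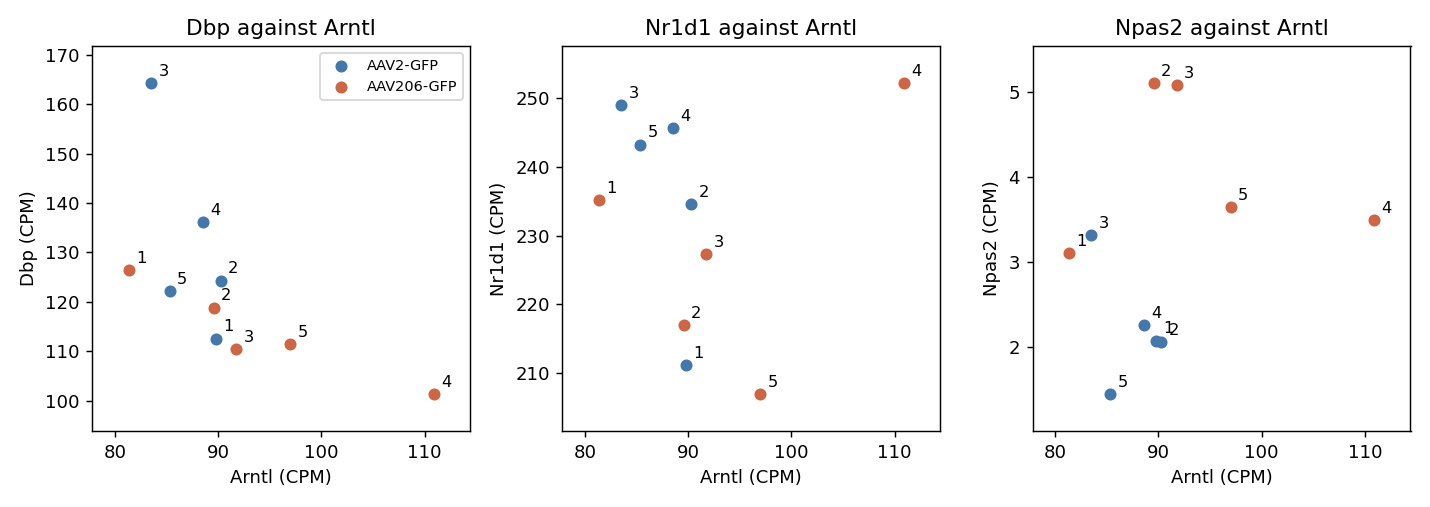
CPM of Dbp, Nr1d1 and Npas2 (y axes) against CPM of Arntl (x axes) in each retina, AAV2-GFP in blue and AAV206-GFP in orange, with mouse numbers. Axes do not start at 0. The retinas with the least Arntl in each group, AAV2-GFP mouse 3 and AAV206-GFP mouse 1, have the most Dbp of their group, and AAV206-GFP mouse 4 has the most Arntl and the least Dbp.

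The other transcription factors of the loops gave 1 call among 11 genes tested, a decrease, against 11.2% of all tested genes called. Nfil3 (also called E4BP4), which represses through D-boxes and is itself repressed by REV-ERB proteins, stood at 16.3, 15.9, 17.7, 16.9 and 16.7 CPM with AAV2-GFP and at 11.6, 13.3, 10.3, 12.6 and 13.7 CPM with AAV206-GFP. The groups did not overlap. It fell from 16.7 ± 0.683 to 12.3 ± 1.34 CPM (SD, n = 5), which is -0.44 ± 0.10 (SE) in log2 fold change at an adjusted p of 0.0139 with edgeR, and it passed in all 21 alternative fits. Clock, the usual partner of ARNTL, had a log2 fold change of 0.11 (edgeR adjusted p = 0.335), and Nr1d2, the paralogue of Nr1d1, one of -0.01 (edgeR adjusted p = 0.914).

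The other transcription factors named did not pass in the main comparison. The D-box activators Tef and Hlf had log2 fold changes of 0.07 and 0.02, and the E-box repressors Bhlhe40 and Bhlhe41 of -0.02 and 0.17 (edgeR adjusted p between 0.0847 and 0.898). Rora and Rorb, which act on ROR elements against the REV-ERB proteins, had estimates of 0.25 and 0.14 (edgeR adjusted p = 0.0594 and 0.165). The estimate for Rora was close in size to that of Per3, and Rora passed with DESeq2 (adjusted p = 0.0290), with robust dispersions in edgeR (adjusted p = 0.0454) and in 3 of the 10 fits without 1 library, those without AAV2-GFP mouse 1 or 2 or AAV206-GFP mouse 1. Bhlhe41 passed with DESeq2 alone (adjusted p = 0.0364). The sign for Nr1d2, Hlf and Bhlhe40 depended on single libraries. Bhlhe41 carried fractional counts in all 10 libraries.

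Among 15 genes that act on clock proteins, such as casein kinases, Prkaa2 alone passed, where 11.2% of all tested genes did. It encodes a catalytic subunit of AMP-activated kinase, which marks cryptochromes for degradation, and it rose from 44.0 ± 2.95 to 53.4 ± 7.03 CPM (SD, n = 5), or 0.28 in log2 units (adjusted p = 0.0465, edgeR). Its groups did not overlap, although AAV206-GFP mouse 1 was within 1 CPM of the highest AAV2-GFP retina. The call held in 3 of the 10 fits without 1 library, those without AAV2-GFP mouse 1 or AAV206-GFP mouse 1 or 5, and was lost with limma-voom (adjusted p = 0.0556) and with the replicate block (adjusted p = 0.0678). Casein kinase genes Csnk1d and Csnk1e had estimates of -0.06 and -0.15, and neither passed (edgeR adjusted p = 0.523 and 0.142).

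Of 6 clock output genes, 2 rose and 1 fell, where 11.2% of all tested genes passed. Usp2, a rhythmic deubiquitinase, stood at 131, 131, 118, 120 and 123 CPM with AAV2-GFP and at 202, 160, 136, 152 and 164 CPM with AAV206-GFP, which is 0.39 ± 0.09 (SE) in log2 fold change at an adjusted p of 0.00937 with edgeR. Klf9, a rhythmic transcription factor also induced by glucocorticoids, rose from 136 ± 9.11 to 163 ± 9.45 CPM (SD, n = 5), or 0.26 in log2 units (adjusted p = 0.0174, edgeR). Noct, the rhythmic phosphatase nocturnin, fell from 55.6 ± 2.96 to 45.9 ± 3.05 CPM (SD, n = 5), or -0.28 in log2 units (adjusted p = 0.0153, edgeR). In all 3 the groups did not overlap, as in 9.78% of all tested genes. Usp2 and Klf9 passed in all 21 alternative fits, and Noct in all but those without AAV2-GFP mouse 4 (adjusted p = 0.0516) or without AAV2-GFP mice 1 and 4.

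Of 22 genes for light input and rhythmic signalling in the retina, 16 were tested and 1 passed, where 11.2% of all tested genes did. Drd4, the dopamine D4 receptor of photoreceptors, whose RNA is known to cycle under the retinal clock, stood at 181, 193, 211, 197 and 184 CPM with AAV2-GFP and at 340, 249, 244, 232 and 276 CPM with AAV206-GFP. All AAV206-GFP retinas were above all AAV2-GFP retinas, with AAV206-GFP mouse 1 highest, as it also was for Usp2. the change in log2 units was 0.47 ± 0.09 (SE) at an adjusted p of 0.00366 with edgeR, and it passed in all 21 alternative fits. Adcy1, a rhythmic adenylyl cyclase, had an estimate of 0.01 (edgeR adjusted p = 0.968), and Opn4, the melanopsin gene, of 0.21 (edgeR adjusted p = 0.561). Aanat, the melatonin synthesis enzyme, was too low to test.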

How the data were processed

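The authors deposited a table of estimated counts per gene, 1 column per library, not scaled between libraries. STAR 2.7.10b, RSEM 1.3.1 and the build mm10 are named in the submitters' processing notes, and the annotation and strand setting are not given in the sources used here. Decimals occurred in 5.95% of values, so counts were rounded to whole numbers, as planned for estimated counts. Symbols, gene positions and exon lengths came from GENCODE M21 (GRCm38), which named 52029 of 57010 identifiers. Genes were kept by filterByExpr (minimum count 10) and tested with edgeR 4.0.16 in R 4.3.3 (TMM factors, quasi-likelihood F test, no covariates, all 10 libraries, Benjamini-Hochberg over 15539 genes, threshold 0.05). Standard errors are the absolute log2 fold change over the square root of F, and 95% intervals use the fit's degrees of freedom. The 10 genes were all described, and of the other lists the genes past the threshold and 9 loop transcription factors were named by plan. Some further genes that did not pass or were not tested were named outside that plan. Of the genes listed, 1 is not reported here, although counts include it. Members and lists were chosen with earlier results of these data known. Libraries within a group differed by more than sampling noise (chi-square per degree of freedom 3.61 to 21.3), so none was treated as a duplicate. The design text gives 5 mice per group, and that each library is 1 mouse is taken from it. The fitting procedure was tested on simulated counts. Alternatives covered scaling, filters, rounding, DESeq2 1.42.0, limma-voom (limma 3.58.1), robust dispersions, a replicate block, and leaving out libraries. Same-numbered libraries did not deviate together (correlations of -0.05 to 0.04).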

Additional observations from a re-analysis of the deposited data

Results flagged for a closer look

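Values of 28 genes were examined in both groups for a mouse far from the other 4. The measure was Dixon's ratio of the gap to the range, with a limit of 0.71 for 5 samples. These were the 10 clock genes, 9 loop transcription factors and the other genes past the threshold in the clock, retinal rhythm and glucocorticoid lists. Further genes named in the text were not examined. Among 56 group values 2 were taken up, where 2.8 would be reached by chance. Ciart in AAV206-GFP mouse 1 reached 13.5 CPM while the remaining 4 retinas lay between 9.33 and 10.3 CPM (ratio 0.754). Rorb in AAV2-GFP mouse 2 reached 347 CPM while the remaining 4 lay between 319 and 324 CPM (ratio 0.829).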

How the results depend on the processing

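The count of clock genes higher with AAV206-GFP was 4 in the main fit and 3 with scaling by library sizes only. It fell to 2 without a filter on low counts and to 2 with the replicate block. Without AAV2-GFP mice 1 and 4 it was 0, and it was 1 to 4 over the fits that left out 1 library. Fits that left out mice also had fewer libraries. Why the count changed was not tested. Over all genes, 1747 passed, 924 higher and 823 lower. With the replicate block these were 1085, 605 and 480, and without AAV2-GFP mice 1 and 4 they were 985, 530 and 455. Leaving out 1 library gave 991 to 1912, 560 to 1002 and 431 to 910. The labels tie no shared source to the replicate numbers, same-numbered libraries did not deviate together, and 1 of the 10 libraries correlated best with its own number. With the block, Cry1 and Npas2 passed and Per3 and Cry2 did not. The signs of near-zero estimates turned for Nr1d2 (-0.041 to 0.022 over the fits without 1 library, above 0 without AAV2-GFP mouse 3 or AAV206-GFP mouse 1 or 5), Hlf (-0.037 to 0.082, below 0 without AAV2-GFP mouse 1 or AAV206-GFP mouse 4) and Bhlhe40 (-0.059 to 0.014, above 0 without AAV206-GFP mouse 5). None of the 10 clock genes changed sign in any of the 21 alternative fits. Depth limits Npas2 most, at 17 to 59 counts per library.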

Other observations

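Genes known to respond to glucocorticoids, hormones that themselves follow a daily rhythm and induce Per1, were listed beside the clock genes. Of 12 listed 11 were tested, Per1 among them, and 4 rose with AAV206-GFP at an edgeR adjusted p under 0.05, where 5.95% of all tested genes passed as higher. None of the 11 passed as lower, where 5.3% of all tested genes did, and none was lower at an unadjusted p under 0.05 either. The list was chosen with earlier results of these data known, so these counts describe it and do not test it. Fkbp5, a cochaperone of the glucocorticoid receptor, stood at 22.8, 22.7, 22.3, 24.1 and 21.1 CPM with AAV2-GFP and at 35.8, 32.1, 33.6, 38.8 and 39.5 CPM with AAV206-GFP, which is 0.67 ± 0.08 (SE) in log2 fold change at an adjusted p of 7.8e-05 with edgeR. The groups were far apart. Sult1a1, a sulfotransferase, rose from 2.21 ± 0.589 to 5.76 ± 0.618 CPM (SD, n = 5), or 1.38 in log2 units (adjusted p = 0.000719, edgeR), and Mt2, a metallothionein, from 6.30 ± 0.790 to 11.7 ± 1.77 CPM, or 0.89 in log2 units (adjusted p = 0.00123, edgeR). Zbtb16, a transcription factor gene, had a log2 fold change of 0.92 (edgeR adjusted p = 0.0301) with overlap between the groups. The first 3 passed in all 21 alternative fits, and Zbtb16 in 5 of the 10 fits without 1 library.

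Other genes of the same list did not pass. Tsc22d3, Sgk1, Dusp1 and Errfi1, which glucocorticoids also induce, had estimates of -0.03, -0.09, -0.14 and -0.0021 in log2 units (adjusted p = 0.857, 0.365, 0.530 and 0.989 with edgeR), and Nr3c1, the receptor gene, of 0.08 (edgeR adjusted p = 0.574).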
